A study of Mus musculus with 8 samples.

Results

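The 10 genes described here mark the mural cells of brain vessels, the pericytes of capillaries and the smooth muscle cells of arterioles: Pdgfrb, Rgs5, Acta2, Tagln, Myh11, Vtn, Abcc9, Notch3, Anpep and Cald1. They were chosen by name, and were found by their Ensembl identifiers among the 22430 genes of the count table. Gene expression had been measured by poly(A) RNA sequencing of brain from 8 male C57Bl/6JRj mice without any transgene or treatment, 4 of them young adults (6m, 6 months old) and 4 aged (24m, 24 months old). The tissue is given both as whole brain and as a hemisphere, and per the methods of the study the RNA came from a hemisphere homogenate. All 10 genes passed the filter on low counts, and the lowest count of any of them was 23, for Abcc9 in 6m replicate 4. Each library came from a separate animal.

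Mural cells wrap the endothelial tube of brain vessels. Pericytes sit on capillaries, are recruited by platelet-derived growth factor (PDGF) from the endothelium and help to maintain the blood-brain barrier, while smooth muscle cells encircle arterioles and hold actin and myosin filaments that contract and set vessel calibre. Signalling through Notch receptors keeps smooth muscle cells differentiated, and potassium channels opened at low ATP relax the vessel wall. In bulk tissue, fewer mural cells and less RNA per mural cell cannot be told apart.

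Libraries held 63460940 to 103462414 counts, with 24m replicate 1 the deepest. This library stood apart from the other aged ones over all genes, at 182 to 425 chi-square units per degree of freedom against 13.1 to 61.8 among the other pairs. Its red blood cell genes summed to 4156 CPM (counts per 1e+06 of the scaled library total), against 1242 to 2123 CPM in the other 24m libraries. Without it the 6 mural genes called below kept their calls. Of 16730 genes tested with the quasi-likelihood test of edgeR, 43.6% were called, meaning that the p adjusted by Benjamini-Hochberg was 0.05 or less and the log2 fold change 0.58 or more in size. At 24m 25.3% were called higher and 18.3% lower, so 58.1% of the called genes were higher, against 75.7% with library totals alone as the scaling and 47.9% with DESeq2 after quantile normalisation. The median log2 fold change of all tested genes was 0.00 and moved to 0.21 with library totals alone. The fold change also went with transcript length: the median was -0.57 over 3996 genes whose canonical transcript is shorter than 2000 bases and 0.65 over 4140 genes above 5000 bases. The part of this trend in the values below was not tested, but for each of the 10 mural genes whose call changed when it was removed, the value without it is given.

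Of the 10 mural genes, 3 were higher at 24m, 3 were lower and 4 were not called. Those that fell were Acta2, Tagln and Cald1, all of the contractile apparatus, and those that rose were the receptors Pdgfrb and Notch3 and the channel subunit Abcc9. Called genes were 60% of the 10, against the 43.6% of all tested genes, and the median log2 fold change of the 10 was -0.35. This median was -0.13 with library totals alone and -0.11 without the replicates numbered 1 of both ages. The libraries of the ages did not overlap for 7 of the 10 genes, where 55.2% of all tested genes were without overlap. Of these, 3 were higher (28.4% of all tested genes) and 4 lower (26.8%). By the adjusted p alone 7 genes passed, against 62.6% of all tested genes, and 4 of these were lower, against 29.9%.

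**Figure D1:**
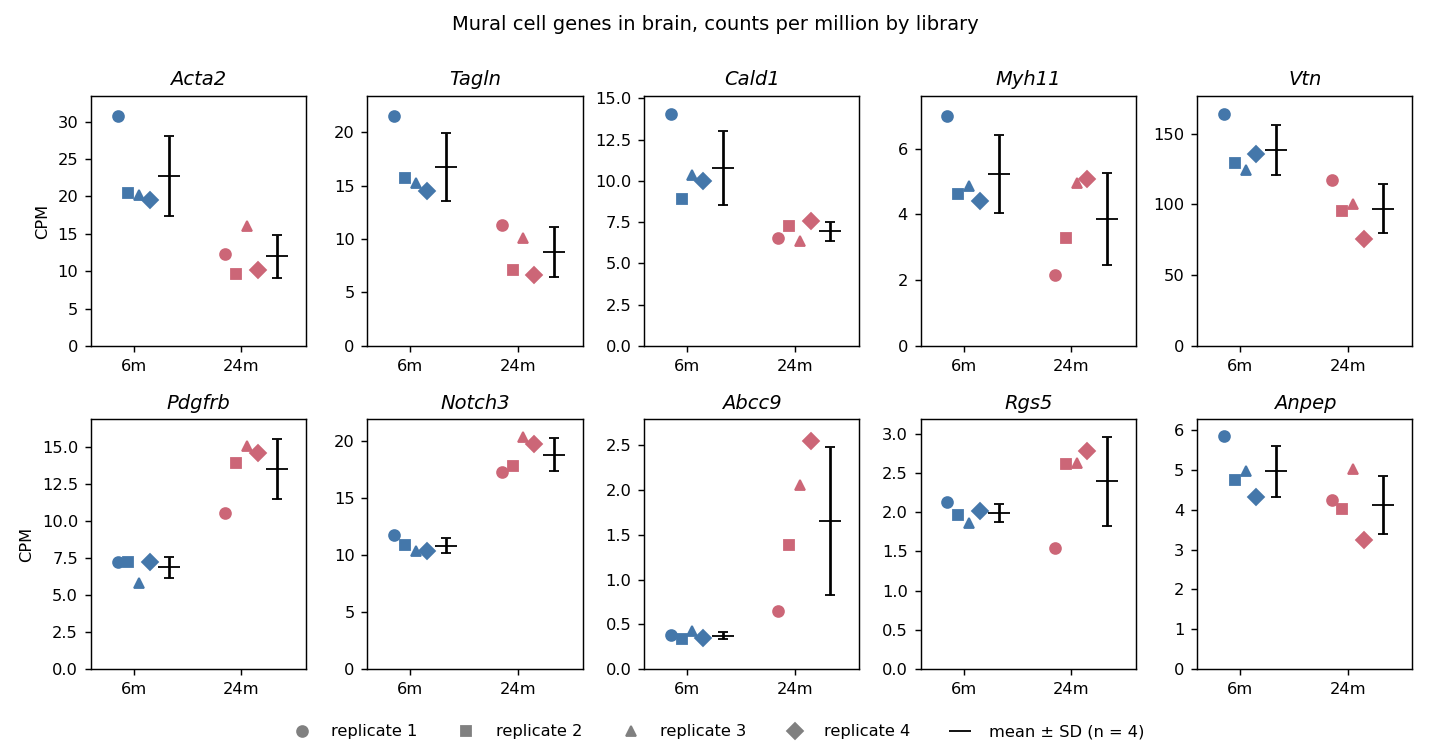
CPM (counts per 1e+06 of the scaled library total, linear axes from 0) of the 10 mural genes in each of the 8 libraries, with replicates marked by symbol and the mean ± SD of 4 libraries per age. Acta2, Tagln, Cald1 and Vtn lie lower in all 24m libraries, Pdgfrb, Notch3 and Abcc9 lie higher, and Myh11, Rgs5 and Anpep overlap between the ages.

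Per kilobase of canonical transcript, the 10 genes spanned a wide range of levels. Vtn was the highest at 6m with 79.0 ± 10.1 CPM per kilobase (SD, n = 4), followed by Tagln at 10.1 ± 1.95 and Acta2 at 8.15 ± 1.92, and the ranges of these last values overlapped. Cald1 stood at 2.23 ± 0.462 CPM per kilobase, and Anpep, Notch3 and Pdgfrb lay close together at 1.36 ± 0.174, 1.34 ± 0.0799 and 1.27 ± 0.132. Myh11 at 0.798 ± 0.182, Rgs5 at 0.482 ± 0.0277 and Abcc9 at 0.0503 ± 0.00558 CPM per kilobase were the lowest. At 24m Pdgfrb (2.50 ± 0.377) and Notch3 (2.32 ± 0.181) lay above Cald1 (1.43 ± 0.122), and Abcc9, still the lowest, reached 0.222 ± 0.111 CPM per kilobase.

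Among the contractile genes, Acta2 encodes the smooth muscle isoform of alpha-actin (ENSMUSG00000035783, chr19:34217737-34232990 of GRCm39, minus strand). Its level was 30.7, 20.4, 20.2 and 19.5 CPM in 6m replicates 1 to 4, and 12.25, 9.56, 16.0 and 10.1 CPM in 24m replicates 1 to 4. No library of 24m reached the lowest 6m library, and 6m replicate 1 stood well above the other young animals. The mean fell from 22.7 ± 5.36 to 11.98 ± 2.91 CPM, a 1.90-fold drop (log2 fold change -0.92 ± 0.20 SE, edgeR adjusted p = 0.00298). This call held in all 21 alternative settings.

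Transcription of smooth muscle contractile genes is known to be driven by serum response factor (Srf), which binds the CArG box, a run of A and T between CC and GG. RefSeq windows of 300 bases, from 250 before to 50 after the start of transcription (GRCm38.p6), were given for 7 of the 10 mural genes (Tagln, Myh11 and Pdgfrb had none), in 8 windows, and both strands were searched. The CArG box was in none of these 8 windows and in 1.63% of the 32851 windows of all genes. A CArG-like match, with 1 of the central letters C or G in place of A or T, was in 1 of the 8 windows, that of Acta2, and in 8.5% of all windows. The matches of Acta2, of its contractile partner Myl9 and of Srf itself are shown in capitals with 10 bases on each side, since these genes are compared below and moved in opposite directions.

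Acta2 chr19:34255438-34255467 (minus strand, CArG-like, beginning 84 bases before the start): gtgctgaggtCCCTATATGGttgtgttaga
Acta2 chr19:34255388-34255417 (minus strand, CArG-like, beginning 34 bases before the start): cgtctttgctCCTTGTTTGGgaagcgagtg
Myl9 chr2:156775293-156775322 (plus strand, CArG box, beginning 161 bases before the start): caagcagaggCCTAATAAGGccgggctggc
Myl9 chr2:156775355-156775384 (plus strand, CArG-like, beginning 99 bases before the start): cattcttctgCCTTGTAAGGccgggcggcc
Srf chr17:46556225-46556254 (minus strand, CArG box, beginning 82 bases before the start): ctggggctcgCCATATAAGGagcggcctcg
Srf chr17:46556205-46556234 (minus strand, CArG box, beginning 62 bases before the start): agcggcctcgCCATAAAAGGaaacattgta

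A match describes letters only and no binding was measured. The Acta2, Myl9 and Srf windows each hold a pair of matches, and the Srf matches lie 20 bases apart.

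Tagln encodes transgelin, an actin-binding protein of smooth muscle (ENSMUSG00000032085, chr9:45840909-45847404 of GRCm39, minus strand). Its level was 21.5, 15.7, 15.3 and 14.5 CPM in the 6m replicates and 11.4, 7.09, 10.1 and 6.61 CPM in the 24m replicates. All 24m libraries were below all 6m libraries. The mean fell from 16.7 ± 3.22 to 8.79 ± 2.31 CPM (log2 fold change -0.93 ± 0.20 SE, edgeR adjusted p = 0.00297). With the length trend removed the values were -0.46 over exonic length and -0.50 over canonical transcript length (adjusted p = 0.0283 and 0.0222), short of the fold threshold. The long non-coding gene Gm48529, on the opposite strand, covers 60.7% of the exonic bases of Tagln, and how strand was used in counting is not given in the sources used here, so Tagln counts may include reads of it. Opposite-strand genes also cover 9.33% of the exonic bases of Acta2 (Stambpl1) and 8.92% of those of Notch3 (Gm17276), and at most 1.36% of those of the other mural genes.

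Cald1 encodes caldesmon, which binds actin and restrains its pull by myosin (ENSMUSG00000029761, chr6:34575435-34752408, plus strand). Its level was 14.04, 8.88, 10.35 and 9.97 CPM in the 6m replicates and 6.55, 7.28, 6.34 and 7.59 CPM in the 24m replicates. The ages did not overlap, and the 24m libraries were closer together than the 6m libraries, of which replicate 1 was the highest. The mean fell from 10.8 ± 2.24 to 6.94 ± 0.590 CPM (log2 fold change -0.64 ± 0.15 SE, edgeR adjusted p = 0.00476). Leaving out 6m replicate 1 gave -0.49 (adjusted p = 0.0108) and scaling by library totals gave -0.42 (adjusted p = 0.0450), both short of the fold threshold. With the canonical transcript length trend removed it was -1.10.

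Myh11, the myosin heavy chain of smooth muscle (ENSMUSG00000018830, chr16:14012399-14109236, minus strand), was not called. Its level was 7.0, 4.62, 4.86 and 4.42 CPM in the 6m replicates and 2.15, 3.295, 4.95 and 5.08 CPM in the 24m replicates. The 24m libraries spread on both sides of most 6m libraries, with replicate 1 the lowest. The means were 5.22 ± 1.19 and 3.87 ± 1.40 CPM (log2 fold change -0.44 ± 0.27 SE, edgeR adjusted p = 0.185). The value was -0.26 without 6m replicate 1, -0.21 without 24m replicate 1 and -0.04 without the replicates numbered 1 of both ages, an alternative chosen after seeing the data, but Myh11 was called lower with the exonic length trend removed (-0.71, adjusted p = 0.0307), after quantile normalisation (-0.81, adjusted p = 0.00299) and with the canonical transcript length trend removed (-1.13, adjusted p = 0.00138).

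The summed level of Acta2, Tagln, Cald1 and Myh11 ranged over 48.4 to 73.3 CPM in the 6m libraries and over 27.2 to 37.4 CPM in the 24m libraries, without overlap. Of 12 other contractile genes, 4 fell, 1 rose and 7 were not called, a share called of 41.7% against 43.6% of all tested genes, with a median log2 fold change of -0.32. Myl9, a regulatory light chain of myosin, was at 23.6, 17.0, 17.1 and 18.8 CPM in the 6m replicates and at 9.92, 9.06, 10.4 and 8.32 CPM in the 24m replicates (log2 fold change -1.02 ± 0.13 SE, edgeR adjusted p = 0.000215). Tpm2, a tropomyosin, fell by 0.87 on the log2 scale (adjusted p = 0.000949) and Cnn1, the actin-binding calponin, by 0.85 (adjusted p = 0.00456). Synpo2, which bundles actin and has the longest canonical transcript of these 12 genes at 9203 bases, rose by 0.96 (adjusted p = 0.000734). With the canonical transcript length trend removed, Synpo2 was at 0.20 (adjusted p = 0.251) and Myl9 at -0.45 (adjusted p = 0.00802), and neither was called. Cnn1 was at -0.52 with the exonic length trend removed, short of the threshold. Among 4 tested paralogs of Acta2, 2 fell and the other 2 were not called (50% called, against 43.6% of all tested genes). The skeletal isoform Acta1 went from 20.5 ± 0.991 to 11.4 ± 1.37 CPM (log2 fold change -0.85, edgeR adjusted p = 0.000197), and was at -0.41 and not called with the canonical transcript length trend removed.

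Srf was at 29.0, 29.6, 30.3 and 34.1 CPM in the 6m replicates and at 42.55, 48.9, 52.2 and 45.1 CPM in the 24m replicates, so that every 24m library was above every 6m library. It rose by 0.62 ± 0.09 SE on the log2 scale (edgeR adjusted p = 0.000499). The actin-regulated cofactors of Srf rose as well: Mrtfa by 0.75 (adjusted p = 7.79e-05) and Mrtfb by 3.20 ± 0.39 SE (adjusted p = 0.000159). Mrtfb was at 3.78, 6.42, 5.87 and 3.65 CPM in the 6m replicates and at 17.7, 44.0, 49.1 and 70.1 CPM in the 24m replicates, the lowest of the aged libraries again being replicate 1. Of 9 tested transcription factors listed for mural cells, 5 were called higher, none lower and 4 neither (55.6% called, against 43.6% of all tested genes). Myocd, a smooth muscle cofactor of Srf with at most 6 counts in any library, was not tested. Which cells of the brain gave the counts of these factors was not resolved. Srf was at 0.57 and not called without 24m replicate 3, and at 0.578, just short of the threshold, after quantile normalisation. With the canonical transcript length trend removed Srf was at 0.31 and Mrtfa at 0.44, also short of the threshold, while Mrtfb kept its call in all 21 alternatives. Without 24m replicate 3, or without 24m replicate 4, 3 of the 9 factors were called higher. The same number, 3, was called higher with the GC trend removed and after quantile normalisation. It was also 3 with the replicate number as a block and the exonic length trend removed together. With the canonical length trend removed 1 was called higher and 2 lower, and 1 was called lower with the exonic length or GC trend removed, after quantile normalisation or without 24m replicate 4.

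Pdgfrb encodes the receptor through which endothelial PDGF recruits pericytes (ENSMUSG00000024620, chr18:61178212-61218133 of GRCm39, plus strand). Its level was 7.21, 7.23, 5.81 and 7.25 CPM in the 6m replicates and 10.5, 13.9, 15.0 and 14.6 CPM in the 24m replicates. All aged libraries were above all young ones, with 24m replicate 1 the nearest to them. The mean rose from 6.87 ± 0.711 to 13.5 ± 2.04 CPM (log2 fold change 0.97 ± 0.14 SE, edgeR adjusted p = 0.000353). With the canonical transcript length trend removed, an alternative added after seeing the data, the value was 0.42 (adjusted p = 0.0103), short of the fold threshold.

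Of 5 other genes of the PDGF family, 3 rose, 1 fell and 1 was not called, a share called of 80% against 43.6% of all tested genes. Pdgfb, the ligand of Pdgfrb made by endothelial cells, was named after its values were seen. It was at 11.1, 12.9, 12.4 and 14.9 CPM in the 6m replicates and at 13.2, 13.9, 13.6 and 10.7 CPM in the 24m replicates, at a fold change of 0.00 on the log2 scale (edgeR adjusted p = 0.985) whose sign changed with the setting. Pdgfra, the paired receptor carried by oligodendrocyte progenitors and fibroblasts, averaged 3.55 ± 0.449 CPM at 6m and 14.7 ± 5.09 CPM at 24m (higher by 2.05 on the log2 scale, adjusted p = 0.000152). Its ligand Pdgfa averaged 61.3 ± 7.01 and 26.1 ± 0.843 CPM (lower, at -1.23, adjusted p = 2.42e-05). With the trend over either length or over GC content removed, 1 of these 5 genes was called higher.

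Notch3 encodes the Notch receptor of smooth muscle cells and pericytes (ENSMUSG00000038146, chr17:32339794-32385893, minus strand). Its level was 11.7, 10.8, 10.4 and 10.3 CPM in the 6m replicates and 17.3, 17.8, 20.3 and 19.7 CPM in the 24m replicates. The ages were far apart relative to the spread within each. The mean rose from 10.8 ± 0.646 to 18.8 ± 1.46 CPM (log2 fold change 0.80 ± 0.10 SE, edgeR adjusted p = 0.000156). Notch3 has the longest canonical transcript of the 10 genes, 8083 bases, and with the trend over canonical transcript length removed the value was 0.09 (adjusted p = 0.592). Over exonic length it was 0.45 (adjusted p = 0.00194), and after quantile normalisation 0.55, neither reaching the fold threshold.

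Of 14 other genes of the Notch pathway, 7 rose, 2 fell and 5 were not called, with a median log2 fold change of 0.55. The share called was 64.3%, against 43.6% of all tested genes. Rbpj, the DNA-binding partner of activated Notch, rose by 1.89 on the log2 scale (edgeR adjusted p = 0.000187). The receptor Notch2 rose by 1.73 (adjusted p = 0.00113), the coactivator Maml1 by 1.65 (adjusted p = 0.000291) and the ligand Jag1 by 1.21 (adjusted p = 0.00458). These 4 genes kept their calls in all 21 alternatives. Heyl and Hey2, targets of Notch that were named after their values were seen, were called higher at 0.61 and 0.82 but lost the call in 9 and 4 alternatives. The genes called lower, also named afterwards, were the target Hes1 (-0.88, edgeR adjusted p = 0.000239) and the endothelial receptor Notch4 (-0.70), and 1 gene of the list was called lower with library totals alone or with the GC or canonical length trend removed.

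Abcc9 encodes the sulphonylurea receptor that pairs with the pore subunit Kcnj8 in the ATP-sensitive potassium channel of pericytes and smooth muscle (ENSMUSG00000030249, chr6:142533588-142648571, minus strand). It had 25, 24, 26 and 23 counts in the 6m replicates and 67, 111, 171 and 222 counts in the 24m replicates, or 0.381, 0.339, 0.431 and 0.348 CPM and 0.647, 1.39, 2.05 and 2.545 CPM. Every aged library exceeded every young one, and the aged libraries differed widely among themselves, with replicate 1 the lowest. The mean rose 4.42-fold from 0.375 ± 0.0416 to 1.66 ± 0.825 CPM (log2 fold change 2.14 ± 0.39 SE, edgeR adjusted p = 0.00121), and the call held in all 21 alternatives. It was the only one of the 10 mural genes with a log2 fold change of at least 1 in size.

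The pore subunit Kcnj8 changed the other way. It was at 6.63, 4.96, 4.61 and 6.43 CPM in the 6m replicates and at 3.74, 3.49, 4.12 and 3.62 CPM in the 24m replicates (log2 fold change -0.60 ± 0.15 SE, edgeR adjusted p = 0.00587). The ages did not overlap, but the call sat at the fold threshold and was lost when 6m replicate 1 (-0.51) or 4 (-0.53) or 24m replicate 1 (-0.57) or 2 (-0.56) was left out, with library totals alone (-0.37) and with the exonic length trend removed (-0.46). Within a library, where scaling has no part, there were 17.4, 14.6, 10.7 and 18.5 counts of Kcnj8 for each count of Abcc9 in the 6m replicates and 5.78, 2.52, 2.01 and 1.42 in the 24m replicates. These ratios keep the length trend, as the canonical transcripts are 3038 bases for Kcnj8 and 7460 for Abcc9. At 6m they rest on 23 to 26 counts of Abcc9 per library. Kcnj11, the pore subunit of the neuronal channel, averaged 20.9 ± 1.04 CPM at 6m and 37.8 ± 2.43 CPM at 24m (higher by 0.85 on the log2 scale, adjusted p = 6.07e-05).

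Vtn encodes vitronectin, an adhesive glycoprotein of the extracellular matrix that pericytes secrete (ENSMUSG00000017344, chr11:78388717-78393156, plus strand). Its level was 164, 129, 124 and 136 CPM in the 6m replicates and 117, 95.2, 100.4 and 75.3 CPM in the 24m replicates. No aged library reached the young ones. The mean went from 138 ± 17.6 to 97.0 ± 17.3 CPM, with an adjusted p under the threshold and a fold change short of it (log2 fold change -0.51 ± 0.14 SE, edgeR adjusted p = 0.00976), so Vtn was not called. Without 24m replicate 1 it was called lower (-0.59, adjusted p = 0.00112), and with the canonical transcript length trend removed it was at -0.12.

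Rgs5, which speeds the switching off of G protein signals and is a long-used pericyte marker, was not called (ENSMUSG00000026678, chr1:169483036-169524887, plus strand). Its level was 2.13, 1.97, 1.86 and 2.01 CPM in the 6m replicates and 1.54, 2.61, 2.63 and 2.77 CPM in the 24m replicates. In the aged group, 3 libraries were above every young library and replicate 1 was below them all. The log2 fold change was 0.26 ± 0.19 SE (edgeR adjusted p = 0.257), and 0.44 without 24m replicate 1 (adjusted p = 0.00867), short of the fold threshold. It turned to -0.07 after quantile normalisation, -0.05 with the GC trend removed and -0.06 with the canonical transcript length trend removed.

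Anpep, a membrane aminopeptidase of pericytes, was not called either (ENSMUSG00000039062, chr7:79471551-79510807, minus strand). Its level was 5.84, 4.74, 4.96 and 4.33 CPM in the 6m replicates and 4.24, 4.01, 5.02 and 3.24 CPM in the 24m replicates. The ages overlapped through 24m replicate 3, and the log2 fold change was -0.27 ± 0.16 SE (edgeR adjusted p = 0.163), or -0.17 without 24m replicate 4. After quantile normalisation Anpep was called lower, at -0.60 (adjusted p = 0.00135).

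**Figure D2:**
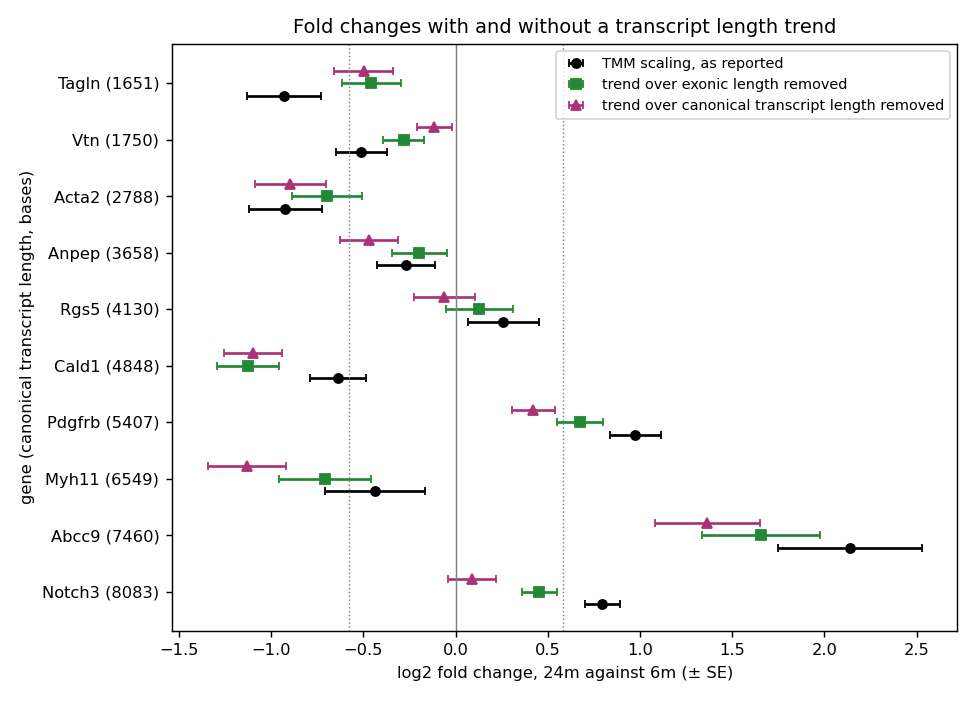
Log2 fold change of 24m against 6m (± SE) for each of the 10 mural genes, as fitted and with the trend over exonic length or canonical transcript length removed, with genes labelled by canonical transcript length in bases. With the canonical length trend removed, Notch3 moves from 0.80 to 0.09, Pdgfrb from 0.97 to 0.42 and Tagln from -0.93 to -0.50. Acta2 (-0.92 and -0.90), Cald1 (-0.64 and -1.10) and Abcc9 (2.14 and 1.36) stay past the threshold, and Myh11 (-0.44 and -1.13) moves past it.

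Among 12 other genes used as pericyte markers, 4 fell, 2 rose and 6 were not called, with a median log2 fold change of -0.28. The share called was 50%, near the 43.6% of all tested genes. Those called lower were 2 when 6m replicate 1, 6m replicate 4 or 24m replicate 2 was left out, with library totals alone or with either length trend removed, and those called higher were 1 without 6m replicate 4 or 24m replicate 4 and 0 with the exonic length trend removed or after quantile normalisation. Higd1b, a small mitochondrial protein gene, was at 5.58, 3.28, 4.61 and 4.36 CPM in the 6m replicates and at 2.16, 1.35, 1.84 and 1.33 CPM in the 24m replicates (log2 fold change -1.41 ± 0.21 SE, edgeR adjusted p = 0.000471), and kept its call in all 21 alternatives. Ndufa4l2, another mitochondrial protein gene, fell by 0.79 (adjusted p = 0.00345) and was at -0.06 with the canonical transcript length trend removed. Ifitm1, an interferon-induced membrane protein gene, fell by 0.90 (adjusted p = 0.0278), with adjusted p of 0.0652 to 0.0767 when replicate 1 or 4 of 6m, or any of replicates 2, 3 and 4 of 24m, was left out. With the trend over exonic or canonical transcript length removed, Ifitm1 was at -0.26 (adjusted p = 0.299) or -0.11 (adjusted p = 0.643). Atp13a5, a membrane transport ATPase gene, rose by 0.68 (adjusted p = 0.0119), but was at 0.08 with the canonical transcript length trend removed (adjusted p = 0.650), at 0.47 with the GC trend removed and at 0.35 after quantile normalisation, and was not called without 24m replicate 4 either.

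Within each library, the counts of the contractile genes were set against those of the receptors, a ratio that scaling between libraries does not affect but that restates their fold changes and keeps the length trend. Acta2 had 4.26, 2.82, 3.49 and 2.69 counts for each count of Pdgfrb in the 6m replicates and 1.16, 0.688, 1.06 and 0.694 in the 24m replicates. The ratio of Tagln to Pdgfrb was 2.99, 2.17, 2.63 and 2.00 at 6m and 1.08, 0.510, 0.672 and 0.453 at 24m. Both ratios were lower in every aged library than in any young one. Between genes whose fold changes had the same sign, Pdgfrb to Notch3 was 0.615, 0.667, 0.560 and 0.701 at 6m and 0.609, 0.781, 0.739 and 0.741 at 24m, and Acta2 to Tagln was 1.43, 1.30, 1.33 and 1.34 at 6m and 1.08, 1.35, 1.58 and 1.53 at 24m. Acta2 to Myh11 was close to constant in the young libraries, at 4.39, 4.41, 4.16 and 4.41, but spread over 5.69, 2.90, 3.23 and 2.00 in the aged libraries.

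**Figure D3:**
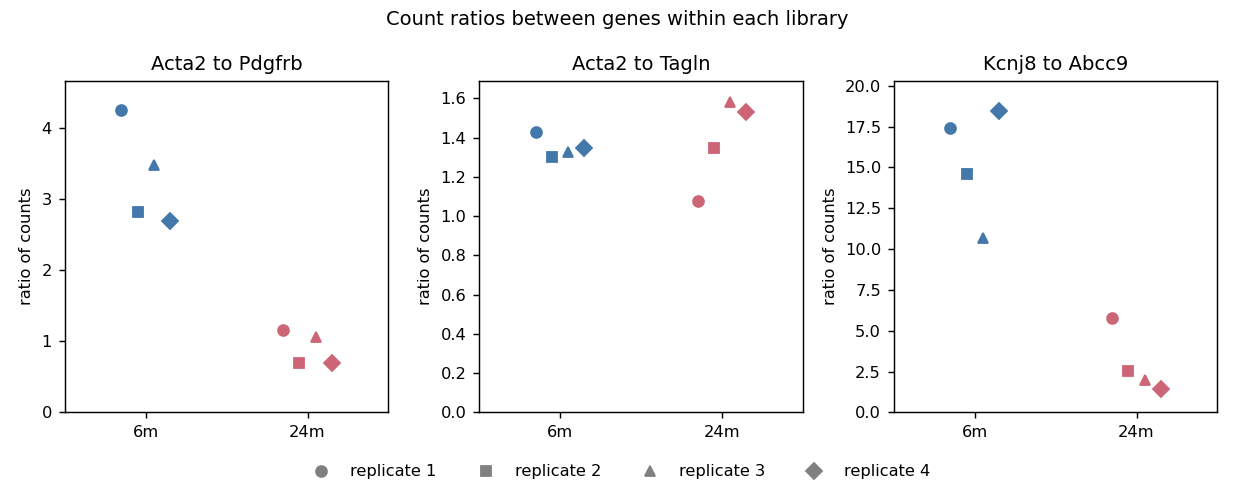
Ratios of raw counts between pairs of genes within each of the 8 libraries (linear axes from 0), with replicates marked by symbol. The ratios keep the length trend. Acta2 to Pdgfrb ranges from 2.69 to 4.26 at 6m and from 0.688 to 1.16 at 24m, and Kcnj8 to Abcc9 from 10.7 to 18.5 and from 1.42 to 5.78.

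The genes with the pattern over the 8 libraries most like that of a mural gene were sought among 13537 genes averaging 1 CPM or more, by the root mean square distance of their centred log2 CPM. Nearest to Acta2 were Slc38a5, an amino acid transporter gene, at 0.148, Tagln at 0.158, Myl9 at 0.167, Nostrin, a regulator of endothelial nitric oxide synthase, at 0.180 and Nfkbia, an inhibitor of NF-kB, at 0.184. Nearest to Pdgfrb were Pet117 at 0.0827, Prdm11 at 0.0893, Apc2 at 0.0908, Cyp26b1, a retinoic acid-degrading enzyme, at 0.0919 and Cntnap1, a neuronal protein of the junctions beside the node of Ranvier, at 0.0923. No other mural gene was among the 5 nearest to Pdgfrb, whereas Tagln was the second nearest to Acta2.

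Of 12 endothelial markers, 2 rose, 3 fell and 7 were not called (median log2 fold change -0.21), a share called of 41.7% against 43.6% of all tested genes, with summed levels of 153 to 189 CPM at 6m and 129 to 170 CPM at 24m. Tie1, an endothelial receptor gene, fell by 1.11 (edgeR adjusted p = 0.000518) and Cldn5, a tight junction gene, by 1.06 (adjusted p = 0.000459), while the growth factor receptors Flt1 and Kdr rose by 1.24 (adjusted p = 0.00753) and 1.12 (adjusted p = 0.00519). With the canonical transcript length trend removed, Flt1 (0.50), Kdr (0.49) and Cldn5 (-0.50) were not called and Tie1 kept its call. Of 10 markers of vascular fibroblasts and meninges 1 fell, the retinoid-binding protein gene Crabp2 (-0.76, adjusted p = 0.00757), and 9 were not called. The share called was 10% against 43.6% of all tested genes, with summed levels of 80.0 to 100.5 and 71.5 to 91.2 CPM. Crabp2 was at -0.12 with the exonic and -0.02 with the canonical length trend removed, and between 0 and 4 genes of this list were called lower over the alternatives. Of 5 perivascular macrophage markers 1 was called higher and 1 lower (40% called, against 43.6% of all tested genes), with sums of 3.22 to 3.92 and 3.07 to 3.83 CPM. None was called higher without 24m replicate 3 or without 24m replicate 4, and none lower with the exonic length trend removed. Of 7 choroid plexus markers 3 were called higher and none lower (42.9% called, against 43.6% of all tested genes), with sums of 1778 to 3200 and 824 to 2256 CPM. Most of each sum was Ttr, at 1747 to 3157 CPM in the 6m libraries and 783 to 2208 CPM in the 24m libraries. Up to 2 choroid plexus markers were called lower in the alternatives, among them DESeq2, limma-voom and the fit without 24m replicate 1.

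All 5 red blood cell genes fell (100% called, against 43.6% of all tested genes). Their summed level was 5426 to 7605 CPM at 6m and 1242 to 4156 CPM at 24m. Hbb-bs, a beta-globin gene, fell by 1.52 on the log2 scale (edgeR adjusted p = 0.00294). Of 6 astrocyte markers 5 rose and none fell (83.3% called, median log2 fold change 1.47). Of 4 tested markers of skeletal and cardiac muscle 3 fell, including Acta1 (75% called). None of the markers listed was at 0 in all libraries. The part of endothelial cells, red blood cells or astrocytes in the values of the mural genes was not tested.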

How the data were processed

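Poly(A) RNA of 4 brains aged 6 months and 4 aged 24 months was sequenced as directional paired-end libraries. According to the labels and the published methods, the authors trimmed reads with Trim Galore 0.4.11, aligned them to GRCm39 with HISAT2 2.1.0 and counted them per Ensembl gene with featureCounts. The deposited table holds raw counts per gene, not pooled. Settings for strand and multimapping reads were not given in the sources used here.

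The 10 genes and all lists were chosen with earlier results of these data known. Of the 22430 genes, 22281 matched GENCODE annotation of GRCm39, and 16730 with more than 5 counts in at least 4 libraries were tested in edgeR 4.0.16 under R 4.3.3 by quasi-likelihood, scaled by TMM, with a single term for age, and p-values were adjusted over all tested genes. SE is the log2 fold change over the square root of F. CPM is counts per 1e+06 of the TMM-scaled library. From each other list the text names up to 4 called genes of largest change with a mean of at least 1 CPM. Canonical transcripts of the 10 mural genes share at most 1.64% of their 31-base words with other genes. That share is of Abcc9, whose shared words occur in 4185 other genes. Exonic bases outside the canonical transcripts were not searched. Libraries of 1 age differed by 8.24 to 425 chi-square units per degree of freedom, so none was a duplicate. Alternatives were other scalings and filters, DESeq2 1.42.0 (also on quantile-normalised counts, without the row-wise median step of the study), limma-voom (limma 3.58.1), each library left out, the replicate number as a block, and lowess trends over length or GC removed. The fit was tested on simulated data.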

Additional observations from a re-analysis of the deposited data

Results flagged for a closer look

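In a group of 4 libraries, a library was taken as far from the others when its gap to the nearest library was a share of the range of the group above the 95% critical value of Dixon. This was met by 3 of the 20 groups tested. Chance gives about 1 in 20 for independent groups. These groups were read from the same libraries, so that rate cannot be applied to their number. Pdgfrb was low in 6m replicate 3 (5.81 CPM, against 7.21 to 7.25 CPM in the other young libraries), with a gap of 0.973 of the range. Acta2 was high in 6m replicate 1 (30.7 CPM, against 19.5 to 20.4 CPM), with a gap of 0.918. Rgs5 was low in 24m replicate 1 (1.54 CPM, against 2.61 to 2.77 CPM), with a gap of 0.865. Without 6m replicate 1 Acta2 was still called lower, and without 6m replicate 3 Pdgfrb was still called higher.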

How the results depend on the processing

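Of 21 alternative settings run for every mural gene, Acta2 and Abcc9 kept their calls in all, Pdgfrb in 20, and Acta2, Tagln, Cald1, Myh11, Vtn and Anpep stayed negative and Pdgfrb, Notch3 and Abcc9 positive throughout. Leaving out each library in turn gave 3 mural genes called higher each time and 2 to 4 called lower, and 3825 to 4673 genes called higher and 2615 to 3592 lower over all tested. The 2 came without 6m replicate 1 (Cald1 at -0.49) and the 4 without 24m replicate 1 (Vtn at -0.59). With library totals alone, 5449 genes were called higher and 1746 lower. DESeq2 on quantile-normalised counts called 5 mural genes lower. With the canonical transcript length trend removed 1 was called higher. At a log2 fold change of at least 1 in size, 1 was called higher and 0 lower. Rgs5 turned to -0.0741, -0.0506 and -0.0627 under quantile normalisation, the GC trend and the canonical length trend. The cause of these changes was not tested.

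Pdgfb turned to -0.00277 with median-of-ratios factors, -0.00289 with DESeq2, -0.241 after quantile normalisation, -0.000298 with filterByExpr, -0.0626 and -0.0133 without 6m replicates 1 and 3, -0.0351 and -0.0262 without 24m replicates 2 and 3, -0.0572 without both replicates numbered 1 and -0.0724 with the canonical length trend removed. Over the libraries left out in turn it ranged from -0.0626 to 0.0848.

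The replicate numbers shared by the ages are not known to pair animals. Deviations of same-numbered libraries correlated at 0.367, 0.246, 0.170 and -0.505 for numbers 1 to 4, so not every library correlated best with its own number. With the replicate number as a block, 4112 genes were called higher and 3130 lower, and of the mural genes 3 higher (Abcc9 at 2.00) and 3 lower. With the block and the exonic length trend removed together, 2 were higher and 3 lower, Myh11 (-0.73) among the latter in place of Tagln (-0.46). Among the 10 mural genes Abcc9 had the fewest counts, 23 to 26 per library at 6m.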
